A study of Homo sapiens with 24 samples.

Results

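Histone genes were followed through the response of HepG2 cells to bortezomib, nelfinavir and ISRIB. The 61 genes were rows of the count table whose symbol begins with HIST1H, HIST2H, HIST3H or HIST4H, which are the 53 replication-dependent genes, together with the 8 variant genes H1FX, H2AFJ, H2AFV, H2AFX, H2AFY, H2AFZ, H3F3A and H3F3B, out of 18915 genes in the table. Of these, 28 (20 replication-dependent and all 8 variant genes) had enough reads to be tested among 12685 genes, and the other 33, all replication-dependent, had between 1 and 47 reads over all libraries together.

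Histones package DNA: H2A, H2B, H3 and H4 form the nucleosome core, and the linker histone H1 binds where DNA enters and leaves it. The replication-dependent genes supply histones in S phase, and their mRNAs normally end just past a conserved stem-loop, bound by SLBP, in place of a poly(A) tail. The variant genes are expressed through the cell cycle and give ordinary polyadenylated mRNAs. The libraries were primed on poly(A), so the reads assigned to replication-dependent genes sample polyadenylated or A-rich transcripts and not the bulk of histone mRNA.

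HepG2 is a human hepatoma line used as a model of hepatocellular carcinoma, and all groups were the same unmodified line kept for 10 h in the named compound. Bortezomib (50 nM) inhibits the proteasome, nelfinavir (20 µM) is an HIV protease inhibitor that the study used to raise phosphorylated eIF2α, through inhibition of the cofactors of its phosphatase, and ISRIB (50 nM) counteracts the effect of eIF2α phosphorylation on translation. The 6 groups were DMSO (vehicle), ISRIB, nelfinavir, bortezomib, bortezomib with nelfinavir, and bortezomib with ISRIB, each with 4 biological replicates. The study asked how modulating the ATF4 arm of the stress response changes the response to proteasome inhibition.

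Libraries held 5154533 to 6943164 counts, and values are given as CPM, counts scaled by TMM to a common library size, as mean ± SD with n = 4 unless stated. These 3′ reads are tags near the end of a transcript, so levels were compared between groups and not between genes. The 6 hepatocyte-lineage markers (ALB, AFP, APOA1, TTR, SERPINA1, HNF4A) were all present, with 14138 to 436502 counts. Of these markers 4 fell with bortezomib (AFP from 3012 ± 290.3 to 1259 ± 52.0 CPM, TTR from 120.4 ± 11.7 to 42.8 ± 5.78 CPM, APOA1 and HNF4A), while nelfinavir alone raised HNF4A and lowered 0. Adding nelfinavir to bortezomib lowered 4 (HNF4A, AFP, ALB and APOA1), and adding ISRIB raised 3 (TTR, AFP and APOA1) and lowered HNF4A. Over all tested genes, 25.8% fell with bortezomib, and 10.4% rose and 8.84% fell with nelfinavir alone. When nelfinavir was added to bortezomib 13.4% fell, and when ISRIB was added 6.89% rose and 5.34% fell. The part of these marker shifts in the histone results was not tested. Of 4 markers of other cell types, COL1A1 had 11 counts and COL3A1 had 7 over all libraries, and PTPRC and PECAM1 are not among the rows of the count table used here. Mitochondrially encoded genes took 21.5% ± 1.32 of counts with DMSO and 33.8% ± 1.19 with bortezomib. Fewer cells in S phase, less histone mRNA per cell and a smaller polyadenylated share of it cannot be told apart in these bulk libraries.

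The sequence that sets the replication-dependent genes apart lies just after the stop codon. In GRCh37 (hg19), with GENCODE v44lift37 gene models, 57 of the 61 genes were matched, 34 by gene ID and the rest by older symbol. A 16-base stem-loop of the form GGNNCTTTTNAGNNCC on the transcribed strand, with all 6 pairs of the stem intact, was found within 200 bases of the stop codon in 48 of the 49 matched replication-dependent genes, HIST1H3E being the exception, and in 1 of the 8 variant genes, H2AFX. Among 14403 annotated protein-coding genes of the table, 47 (0.326%) carried it in the last 100 bases of a transcript. That count includes the histone genes themselves, so it is not a share among other genes. Its window also differs from the 200 bases after the stop codon searched for the histone genes. The stem-loop is given for the genes the results turn on, with the stem and loop in capitals and 5 bases of flank on each side; all lie in the 3′ untranslated region of the transcript.
HIST1H1C (chr6:26055972-26055987, minus strand): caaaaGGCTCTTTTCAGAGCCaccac
HIST1H1D (chr6:26234445-26234460, minus strand): taaacGGCTCTTTTCAGAGCCaccca
HIST1H1E (chr6:26157323-26157338, plus strand): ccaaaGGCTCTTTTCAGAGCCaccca
HIST2H2AC (chr1:149858941-149858956, plus strand): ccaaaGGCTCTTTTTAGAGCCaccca
HIST1H2BK (chr6:27114145-27114160, minus strand): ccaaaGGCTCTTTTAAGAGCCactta
HIST1H4C (chr6:26104545-26104560, plus strand): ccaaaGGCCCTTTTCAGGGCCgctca
H2AFX (chr11:118965608-118965623, minus strand): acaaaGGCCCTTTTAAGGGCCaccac
The form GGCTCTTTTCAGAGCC was shared by 29 of the 49 genes with a stem-loop. For 11 replication-dependent genes the annotation holds a transcript that runs more than 100 bases past it, among them HIST1H2AC, HIST1H2BC and HIST1H2BN, while the models of HIST1H1C, HIST1H4C and HIST1H2BK end within 5 bases of it. Both annotated transcripts of H2AFX run more than 100 bases past its stem-loop, 1 of them by 1024 bases.

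Reads on the 53 replication-dependent genes, given here as a sum with no test, were highest with DMSO and lower in each treated group. The summed level was 516, 410, 339 and 331 CPM in the 4 DMSO libraries, 292, 247, 255 and 304 with ISRIB, and 265, 251, 165 and 133 with nelfinavir. It was 150, 181, 145 and 123 CPM with bortezomib, 123, 137, 167 and 138 with bortezomib and nelfinavir, and 169, 161, 147 and 95.2 with bortezomib and ISRIB. No treated library reached the lowest DMSO library, and the 3 groups with bortezomib overlapped one another. The DMSO mean of 399 ± 85.6 CPM was raised by replicate 1, without which it was 360 CPM. The mean sum was 37.5% of the DMSO mean with bortezomib, 51.0% with nelfinavir and 68.8% with ISRIB. Most of these reads came from HIST1H1C and HIST1H4C. The sum of the other 51 genes was 29.2 to 37.8 CPM with bortezomib and 46.5 to 61.3 CPM with bortezomib and nelfinavir, which did not overlap, at means of 42.7% and 74.1% of the DMSO mean. HIST1H2BK carried this difference and the 51 genes did not share it. It had 41, 50, 75 and 67 reads with bortezomib and 152, 185, 180 and 169 with both drugs. All 51 genes together had 609 and 1068 reads in these groups.

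The 8 variant genes together changed less, and in a different order. Their summed level lay between 1729 and 1851 CPM with DMSO, 1878 and 2031 with ISRIB, and 1699 and 1867 with nelfinavir. It was 1312 to 1493 CPM with bortezomib, 1398 to 1588 with bortezomib and nelfinavir, and 1269 to 1397 with bortezomib and ISRIB. All libraries with bortezomib were thus below all without it, while the libraries with nelfinavir alone overlapped those with DMSO, at a mean of 97.6% of the DMSO mean.

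**Figure D1:**
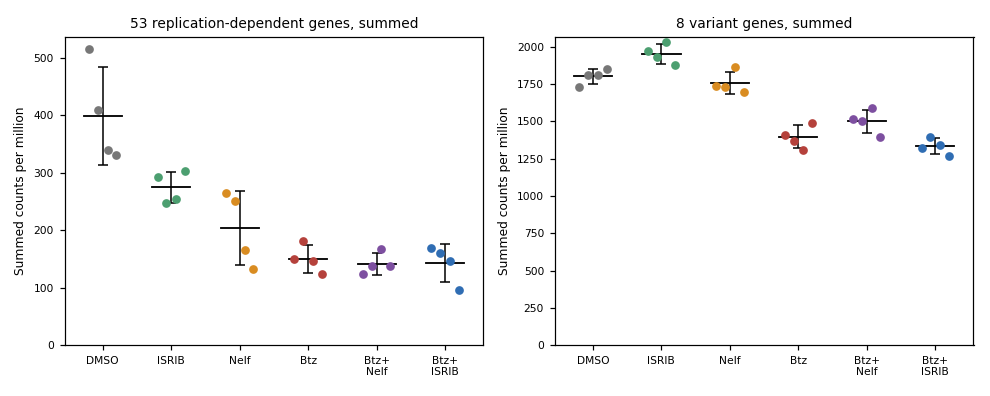
Summed CPM of the 53 replication-dependent genes (left) and the 8 variant genes (right) in each library; points are the 4 replicates of a group, lines the mean and bars the SD. The replication-dependent sum falls from 399 CPM with DMSO to 150 CPM with bortezomib, and the variant sum from 1802 to 1397 CPM.

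With bortezomib alone, 14 of the 28 tested histone genes fell and 0 rose (quasi-likelihood test of edgeR, p adjusted by Benjamini-Hochberg over all 12685 genes, threshold 0.05, as for every call that follows). Over all tested genes 25.8% fell and 27.6% rose in this comparison. Of the genes with a positive change, 1 had an unadjusted p under 0.05, and DESeq2 called 15 lower and 0 higher. With mitochondrially encoded genes removed before scaling, 16 fell. The median log2 change was -1.20 over the 20 replication-dependent genes that passed the filter. It was -0.49 over the 8 variant genes and 0.002 over all genes. Low-count genes could pass the filter through libraries without bortezomib alone. HIST1H1D, for example, had 61, 34, 17 and 28 reads with DMSO and 0, 0, 2 and 1 with bortezomib. Such genes lower the median of the 20 by selection, so it is no separate support for a fall. The genes that fell included 10 replication-dependent genes (HIST1H1C, HIST1H1D, HIST1H1E, HIST1H2AC, HIST1H2AJ, HIST2H2AC, HIST1H2BC, HIST1H2BH, HIST1H2BK and HIST1H4C). The others that fell were 4 of the 5 H2A variants, H2AFJ, H2AFV, H2AFX and H2AFZ.

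HIST1H1C, which encodes the linker histone H1.2, read 181, 133, 114 and 112 CPM in the DMSO libraries and 40.2, 50.4, 32.1 and 26.6 with bortezomib. The groups did not overlap, and the log2 change was -1.85 ± 0.244 (SE), a 3.61-fold fall (adjusted p = 9.66e-08). HIST1H4C, an H4 gene, read 243, 203, 159 and 155 CPM with DMSO and 79.9, 92.5, 83.8 and 67.2 with bortezomib. Its highest bortezomib library was also below its lowest DMSO library, with a log2 change of -1.23 ± 0.201 (adjusted p = 4e-06). These 2 genes took 78.2% of all replication-dependent reads, and the sum of the other 51 also fell, from 74.0 ± 12.4 to 31.6 ± 4.17 CPM. In the annotation HIST1H4C lies inside the span of a long transcript of HIST1H2BC on the other strand. Whether strand was used in counting is not given, so some reads there may be assigned to the wrong gene of the 2. Over all libraries 18604 reads were assigned to HIST1H4C and 91 to HIST1H2BC.

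HIST1H1D, which encodes H1.3, nearly disappeared: it read 7.09, 4.42, 2.38 and 3.43 CPM with DMSO and 0, 0, 0.422 and 0.216 with bortezomib. This was 140 reads against 3, a ratio of 28.4 (95% exact interval 9.5 to 139, counting error only), and the log2 change was -4.63 ± 0.764 (adjusted p = 4.89e-06). HIST1H1E, encoding H1.4, read 14.8, 10.1, 8.67 and 8.33 CPM with DMSO and 4.28, 7.95, 1.48 and 4.1 with bortezomib. The groups were separate by a small margin, with a log2 change of -1.22 ± 0.444 (adjusted p = 0.0203), and the call was lost without DMSO replicate 1 (adjusted p = 0.0815) or bortezomib replicate 3 (adjusted p = 0.0679).

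Among the core histones, HIST2H2AC (an H2A gene) fell 2.64-fold (log2 change -1.40 ± 0.38, adjusted p = 0.00226), HIST1H2AJ 3.69-fold (adjusted p = 0.00125), HIST1H2AC 4.77-fold (adjusted p = 0.00954) and HIST1H2BH 3.18-fold (adjusted p = 0.00264). HIST1H2AC had 0 reads in 2 bortezomib libraries and 1.55 CPM in replicate 2. HIST1H2BC, at 91 reads in all, fell 3.89-fold (adjusted p = 0.0403). That call did not survive leaving out DMSO replicate 1 (adjusted p = 0.155) or bortezomib replicate 1, 3 or 4 (adjusted p = 0.104, 0.0729 and 0.0708), the replicate block (0.0551) or dropping the filter (0.0818). HIST1H2BK is described with the combinations, where it turned. The 3′ ends of HIST1H2BK and HIST1H2AJ each align to 1 other place in the genome (99.2% over 252 bases and 98.3% over 239 bases), so their reads may be shared with that copy.

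H2AFZ encodes H2A.Z.1, a variant placed at promoters and regulatory elements. It read 504, 571, 637 and 640 CPM with DMSO and 261, 286, 249 and 303 with bortezomib. The groups were far apart, at a 2.14-fold fall (log2 change -1.10 ± 0.0922, adjusted p = 5.56e-12). H2AFV, encoding the paralogue H2A.Z.2, read 337, 335, 283 and 300 CPM with DMSO and 201, 193, 172 and 191 with bortezomib. It too fell without overlap, by 0.73 ± 0.0872 on the log2 scale (adjusted p = 1.36e-08). Its 3′ ends match 8 other places at 97% identity or more over at least 80 bases, so its level is uncertain.

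H2AFX, encoding the H2A.X that is phosphorylated at DNA breaks, fell from 72.5, 64.1, 51.8 and 55.7 CPM to 31.4, 24.6, 23.2 and 21.8 (log2 change -1.27 ± 0.196, adjusted p = 1.58e-06). H2AFJ, a gene for the H2A.J variant, read between 11.1 and 11.8 CPM with DMSO and between 4.65 and 6.63 with bortezomib (log2 change -1.08 ± 0.23, adjusted p = 0.000166). Neither gene's groups overlapped. The other 4 variant genes, among them the H2A variant H2AFY, gave no call. H3F3B, a gene for the replacement histone H3.3, read 605 to 642 CPM with DMSO and 667 to 747 with bortezomib (log2 change 0.15 ± 0.0673, adjusted p = 0.0591). Its groups did not overlap, and with library totals alone as scaling the sign turned (-0.35, adjusted p = 7.02e-05). H2AFY, encoding macroH2A1, also turned there, from 0.14 ± 0.105 (adjusted p = 0.267) to -0.36 (adjusted p = 0.00451). That scaling moves the median of all genes by -0.495, and relative to this shift both genes stayed above the median. H1FX (-0.25 ± 0.121, adjusted p = 0.0784) and H3F3A (-0.22 ± 0.603, adjusted p = 0.78) were not called. H3F3A, the second H3.3 gene, had 308 reads in all and its 3′ ends match 7 other places, so its low level cannot be separated from how such reads were assigned.

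With nelfinavir alone, 8 of the 28 fell and 0 rose, against 8.84% lower and 10.4% higher over all tested genes. Of those with a positive change, 1 had an unadjusted p under 0.05 by edgeR, and DESeq2 called 0 higher. The median log2 change was -0.87 over the tested replication-dependent genes, -0.03 over the variant genes and 0.007 over all genes. The limit given above for the bortezomib median, selection of low-count genes by the filter, applies here too. The 8 that fell were HIST1H1C, HIST1H1D, HIST1H1E, HIST1H2AJ, HIST2H2AC, HIST1H2BK, HIST1H4C and H2AFX, all of which carry the stem-loop. Over the 21 tested genes with a stem-loop 8 fell and over the 7 without it 0 fell. The corresponding counts of genes that fell with bortezomib were 11 of 21 and 3 of 7. All of the 21 but H2AFX are replication-dependent, so this split is nearly that of replication-dependent against variant genes. Of the 6 tested replication-dependent genes with a stem-loop and a longer annotated transcript, 0 fell with nelfinavir and 2 with bortezomib. H2AFX, whose transcripts also run past the stem-loop, fell with each. The difference between these shares was not tested. The 6 genes had only 78 to 248 reads each over all libraries, so the lack of a call in them carries little weight.

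Of the 4 tested replication-dependent linker histone genes, 3 fell with nelfinavir, and HIST1H1B had a log2 change of -2.17 ± 0.87 (adjusted p = 0.0795). HIST1H1C read 72.4, 62.8, 34.1 and 29.2 CPM with nelfinavir, all below the 112 CPM of the lowest DMSO library (log2 change -1.44 ± 0.234, adjusted p = 1.88e-05). HIST1H1D fell by 2.00 ± 0.515 on the log2 scale to between 0.519 and 1.55 CPM (adjusted p = 0.00462), and HIST1H1E by 1.62 ± 0.435 (adjusted p = 0.00652).

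The other nelfinavir calls were smaller or rested on fewer reads. HIST1H4C read 149, 142, 93.7 and 66.8 CPM, below the DMSO libraries but spread over more than 2-fold (log2 change -0.75 ± 0.194, adjusted p = 0.00484). H2AFX read 31.8, 41.4, 28.8 and 32.8 CPM, a 1.81-fold fall (adjusted p = 0.00085), in contrast with H2AFZ, which read 552 to 700 CPM and was not called (0.05 ± 0.0901, adjusted p = 0.786). Without DMSO replicate 1, HIST1H2AJ (adjusted p = 0.00869 with it) had an adjusted p of 0.076 and HIST2H2AC (0.0244 with it) of 0.14. The HIST2H2AC call was also lost without any 1 of the 4 nelfinavir libraries (adjusted p from 0.051 to 0.0657). The 4 nelfinavir libraries also differed from each other: replicates 3 and 4 read 165 and 133 CPM in the replication-dependent sum against 265 and 251 in replicates 1 and 2.

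ISRIB alone gave 0 calls among the histone genes, and edgeR called 0% of all genes in either direction, with 702 of 12685 at an unadjusted p under 0.05, while DESeq2 called 1 higher and 18 lower. Of the histone genes, 4 with negative and 0 with positive changes had an unadjusted p under 0.05, and DESeq2 called 0. The libraries of the 2 groups did not overlap for 4 histone genes that were lower (HIST1H1C, HIST1H2AJ, HIST1H3C and HIST2H2AC) and 1 that was higher (H3F3B), against 8.02% of all tested genes not overlapping in either direction. HIST1H1C read 75.4, 51.9, 39.4 and 91.8 CPM with ISRIB, all below DMSO (log2 change -1.06 ± 0.23, adjusted p = 0.186). It was called when only those 2 groups were fitted (adjusted p = 0.0103) or when no filter on low counts was used (adjusted p = 4.28e-15). The value without a filter lies far from those of the other fits to the same libraries, so it is not taken as a measure of strength. H3F3B read 672 to 697 CPM with ISRIB against 605 to 642 with DMSO (0.13 ± 0.0671, adjusted p = 0.899).

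**Figure D2:**
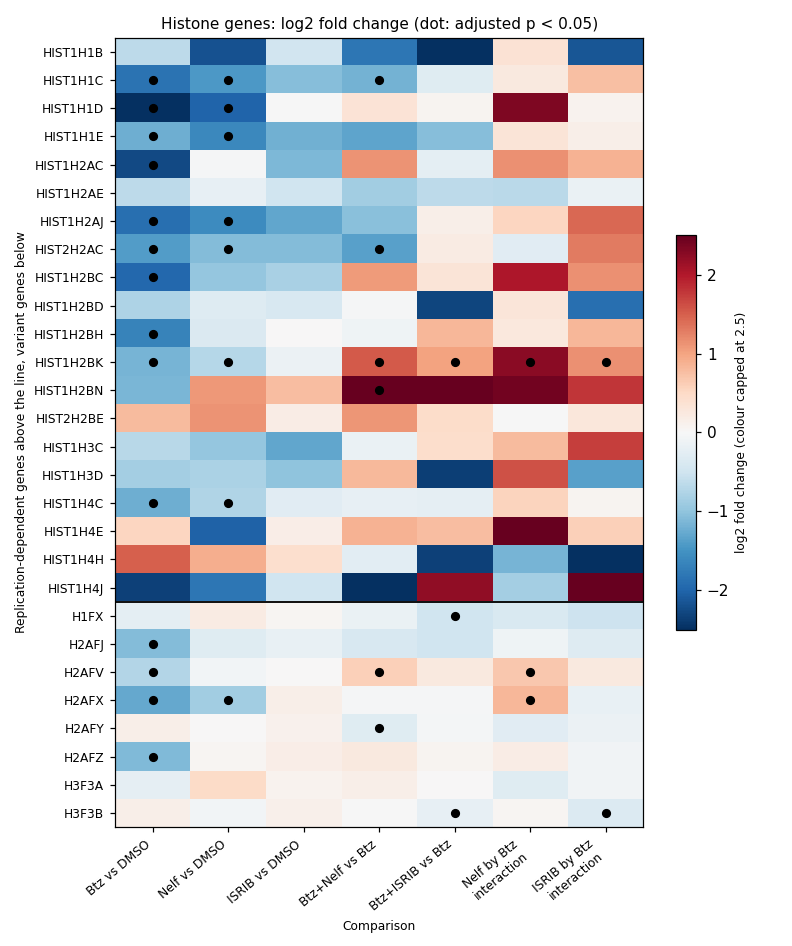
Log2 fold changes of the 28 tested histone genes in the 5 pairwise comparisons and 2 interactions, with black dots where the adjusted p is under 0.05 and the colour capped at 2.5. Dots run down the bortezomib column for 14 genes, all blue, and HIST1H2BK is blue under each single drug and red in both combinations and both interactions.

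Adding nelfinavir to bortezomib raised 3 histone genes and lowered 3, against 15.6% and 13.4% of all genes. HIST1H2BK, an H2B gene, had fallen with each drug alone: it read 28.3, 28.7, 25.6 and 26.8 CPM with DMSO, 14.4, 21.8, 15.4 and 15.1 with nelfinavir, and 8.76, 9.69, 15.8 and 14.5 with bortezomib. With both drugs it read 32.1, 42.0, 35.3 and 31.7 CPM, above every other library of the 5 other groups. The log2 changes were -0.72 ± 0.183 (adjusted p = 0.00433) and -1.17 ± 0.197 (adjusted p = 6.87e-06), and the rise from bortezomib alone to the combination was 1.53 ± 0.199 (adjusted p = 4.24e-07). The interaction, which asks whether nelfinavir acts differently in the presence of bortezomib, was 2.25 ± 0.271 (adjusted p = 1.62e-07), and these 4 calls held under each alternative tried, leaving out any 1 library included.

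HIST1H1C went further down in the combination, to 15.4, 17.0, 16.7 and 16.3 CPM, below all bortezomib libraries (log2 change -1.19 ± 0.276, adjusted p = 0.00132). Its interaction term was 0.25 ± 0.362 (adjusted p = 0.677), so the effect of nelfinavir was not shown to differ with and without bortezomib. HIST1H4C did not move detectably (-0.21 ± 0.207, adjusted p = 0.49). HIST2H2AC fell to between 0.681 and 0.982 CPM (-1.36 ± 0.501, adjusted p = 0.0389), a call lost without bortezomib replicate 1 (adjusted p = 0.221) or 2 (0.0822), or any 1 of the 4 combination libraries (0.0618 to 0.087), with no filter (0.0728) and with the compared groups alone (0.136). HIST1H2BN, an H2B gene with an annotated transcript that runs past the stem-loop, went from 2 reads with bortezomib, both in replicate 1, to 27 with the combination. The ratio was 13.3 (95% exact interval 3.33 to 115, counting error only; adjusted p = 0.0102).

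By class, the replication-dependent H1 sum was 151 ± 38.0 CPM with DMSO, 42.7 ± 13.5 with bortezomib and 18.6 ± 1.33 with bortezomib and nelfinavir. The H2B sum over 17 genes was 35.5 ± 1.58, 17.1 ± 3.36 and 43.9 ± 5.49 CPM in the same groups. H1 and H2B reads thus lay on opposite sides of the bortezomib group, and the H2B sum was mostly HIST1H2BK. The H2A sum was 18 ± 5.2, 6.04 ± 3.44 and 4.1 ± 1.96 CPM and the H4 sum 192 ± 41.9, 82.6 ± 11.5 and 72.5 ± 15.7 CPM. The 9 H3 genes had only 25 to 87 reads per group. Only HIST1H3C and HIST1H3D of them could be tested, and neither was called in any of the 7 comparisons.

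**Figure D3:**
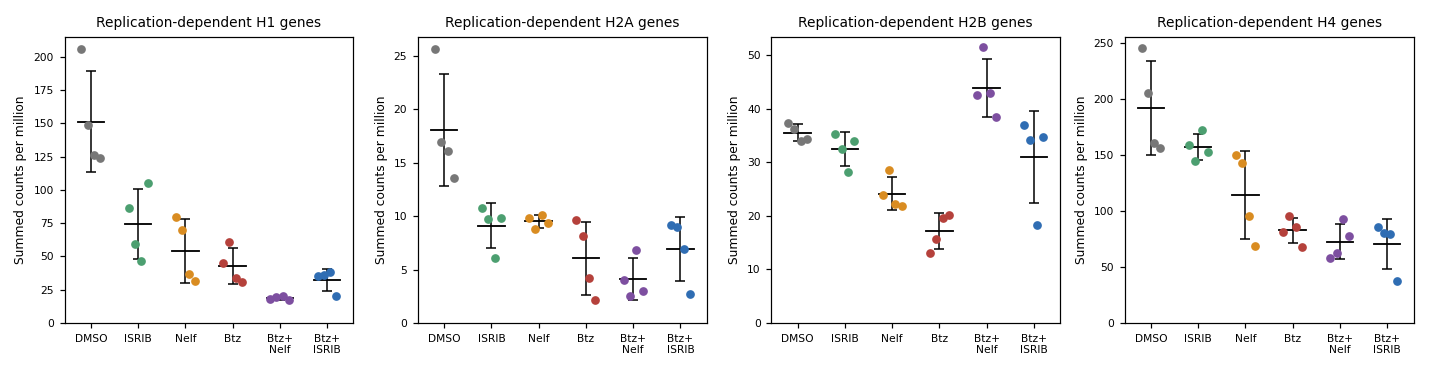
Summed CPM of the replication-dependent H1, H2A, H2B and H4 genes in each library, with the mean and SD of the 4 replicates of each group. H1 falls from 151 CPM with DMSO to 18.6 CPM with bortezomib and nelfinavir, whereas H2B returns from 17.1 CPM with bortezomib to 43.9 CPM in that combination.

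Of the variants, H2AFV read 279, 281, 323 and 263 CPM with both drugs, above its bortezomib libraries and within the range of its libraries with DMSO or nelfinavir alone (256 to 337). The rise over bortezomib was 0.60 ± 0.0877 (adjusted p = 3.18e-06) and the interaction 0.67 ± 0.122 (adjusted p = 0.000132). Its paralogue H2AFZ read 306, 321, 370 and 297 CPM, with 297 inside the bortezomib range (0.24 ± 0.0921, adjusted p = 0.052). H2AFY read 152, 152, 95.6 and 120 CPM (-0.30 ± 0.106, adjusted p = 0.0346), a call lost without bortezomib replicate 1, 2 or 4 (adjusted p = 0.11, 0.0548 and 0.181) or combination replicate 3 or 4 (0.256 and 0.125), with no filter (0.0696) and with the compared groups alone (0.1).

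H2AFX read 30.6, 36.5, 15.7 and 17.3 CPM with both drugs, overlapping bortezomib alone (-0.02 ± 0.209, adjusted p = 0.948). Its nelfinavir interaction of 0.83 ± 0.28 (adjusted p = 0.0325) was lost on leaving out any 1 of 7 libraries: DMSO 1 or 2, nelfinavir 1, 3 or 4, or combination 1 or 2 (adjusted p from 0.0513 to 0.0787). In all, edgeR called a positive nelfinavir interaction for 3 histone genes and a negative one for 0, against 9.74% and 10.0% of all genes. Of the negative terms 1 had an unadjusted p under 0.05, and DESeq2 called 0 of them. Replicates 3 and 4 of the combination stood apart from 1 and 2 for H2AFX and H2AFY.

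Adding ISRIB to bortezomib raised 1 histone gene, HIST1H2BK, and lowered 2, H1FX and H3F3B, against 6.89% and 5.34% of all genes. HIST1H2BK read 30.0, 26, 14.1 and 27.9 CPM with bortezomib and ISRIB, a rise of 1.00 ± 0.204 over bortezomib (adjusted p = 0.000891) with replicate 3 inside the bortezomib range. Its ISRIB interaction was 1.14 ± 0.271 (adjusted p = 0.00918). HIST1H1C (33.2, 32.2, 36.4 and 18.5 CPM) and HIST1H4C (83.2, 79.1, 75.7 and 36.3 CPM) overlapped bortezomib alone, with adjusted p = 0.488 and 0.515. H1FX, encoding the linker variant H1.X, read between 27.4 and 34.7 CPM against 35.9 to 53 with bortezomib (-0.49 ± 0.128, adjusted p = 0.00996), a call lost without bortezomib replicate 1 (adjusted p = 0.0565). H3F3B read 571 to 632 CPM, a fall of 0.21 ± 0.0676 on the log2 scale (adjusted p = 0.037) that was lost on leaving out any 1 of the 8 libraries compared (adjusted p from 0.0508 to 0.132), with no filter (0.153) and with the compared groups alone (0.126). Its interaction of -0.34 ± 0.0953 (adjusted p = 0.0286) was lost without any 1 of 6 libraries (0.0536 to 0.0801) and with no filter (0.132). The ISRIB interactions called were 1 positive and 1 negative, against 2.92% and 1.89% of all genes.

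Genes that act on histone mRNA and protein were read from lists chosen for their roles. SLBP, which binds the stem-loop shown above, read 39.3, 39.5, 35.8 and 39.6 CPM with DMSO and 13.1, 17.9, 14.3 and 17.1 with nelfinavir. It fell 2.47-fold without overlap (log2 change -1.30 ± 0.218, adjusted p = 2.99e-05), while bortezomib left it at 28.7 to 48.2 CPM (-0.08 ± 0.211, adjusted p = 0.768). Its nelfinavir interaction was 1.19 ± 0.308 (adjusted p = 0.00531), with combination libraries split between 43.7 and 48.8 CPM in replicates 1 and 2 and 19.8 and 23.3 in replicates 3 and 4. NPAT, the coactivator of histone gene transcription in the histone locus body, read 21.8 to 25 CPM with DMSO and rose to between 34.9 and 42.0 with bortezomib (0.75 ± 0.138, adjusted p = 2.28e-05), and its nelfinavir interaction was 0.59 ± 0.195 (adjusted p = 0.0304). The bortezomib call of NPAT was lost with library totals alone (adjusted p = 0.128), and its interaction without DMSO replicate 1 or 2, nelfinavir replicate 2 or combination replicate 4 (0.0522 to 0.0616).

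Of 17 genes listed for histone mRNA 3′ end formation, the transcription hub and decay, 16 were tested. Fewer of them were called with bortezomib than among all tested genes, of which 27.6% rose and 25.8% fell. The shares over all tested genes given above for the other comparisons apply to this and the following lists too. With bortezomib 2 rose, NPAT and ZNF473 (a U7 snRNP-associated protein; 2.02 ± 0.207, adjusted p = 5.39e-10), and 1 fell, MIF4GD (an SLBP-binding translation factor; -1.46 ± 0.249, adjusted p = 8.69e-06). With nelfinavir 5 fell: SLBP, CSTF2, ERI1, SRRT and CPSF3. In the combination against bortezomib 3 rose, led by SRRT (0.63 ± 0.0893, adjusted p = 1.9e-06), and 2 fell, led by CPSF3 (-0.49 ± 0.134, adjusted p = 0.00545). Adding ISRIB lowered 1, ZNF473 (-0.63 ± 0.198, adjusted p = 0.0323), a call lost without bortezomib replicate 1, 2 or 4 or the same replicates with ISRIB (0.0522 to 0.125). The nelfinavir calls of SRRT and CPSF3 were likewise lost without DMSO replicate 2 (0.0507 and 0.0692), among other libraries. The nelfinavir interaction was positive for 5, led by SRRT (0.91 ± 0.126, adjusted p = 2.16e-06).

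Of the 12 genes of canonical cleavage and polyadenylation, all tested, 3 rose and 2 fell with bortezomib, no larger shares than the 27.6% and 25.8% of all tested genes, led by the poly(A) polymerase gene PAPOLA (0.42 ± 0.082, adjusted p = 6.64e-05) and CSTF1 (-0.66 ± 0.167, adjusted p = 0.00127). PAPOLA turned to -0.08 with library totals alone. With nelfinavir 1 fell, CSTF1 (-0.45 ± 0.16, adjusted p = 0.0423), a call lost without any 1 of the libraries compared other than DMSO replicate 2 (0.0614 to 0.122). In the combination against bortezomib 1 rose, CPSF1 (0.53 ± 0.116, adjusted p = 0.000725), and 3 fell, led by CSTF3 (-1.33 ± 0.124, adjusted p = 6.74e-10). Adding ISRIB raised CPSF1 (0.43 ± 0.117, adjusted p = 0.0129) and lowered CSTF3 (-0.39 ± 0.118, adjusted p = 0.0259). Without replicate 1 of the group with ISRIB both calls were lost (0.0599 and 0.0727), as was that of CPSF1 without bortezomib replicate 2 (0.0632) and that of CSTF3 without bortezomib replicate 1 (0.0692). CSTF3 encodes a subunit of the cleavage stimulation factor, and PCF11, a termination factor that also fell in the nelfinavir combination, did so by 0.99 ± 0.111 (adjusted p = 2.78e-08).

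Of 20 histone chaperone and import genes, 7 rose and 5 fell with bortezomib, near the 27.6% and 25.8% of all tested genes that did. NAP1L4 (0.77 ± 0.0936, adjusted p = 1.97e-08), an H2A-H2B chaperone, led the first, and ASF1B, an H3-H4 chaperone of proliferating cells, the second (-0.88 ± 0.13, adjusted p = 7.48e-07). VPS72, which delivers H2A.Z, was among those that rose (1.07 ± 0.155, adjusted p = 6.06e-07), whereas both H2A.Z genes fell. With nelfinavir 6 of the 20 fell, led by CHAF1A (-1.19 ± 0.127, adjusted p = 8.07e-09), a subunit of the replication-coupled CAF-1 complex. In the combination against bortezomib 3 rose, led by UBN1 (1.06 ± 0.118, adjusted p = 2.48e-08), and 4 fell, led by ANP32E (-0.45 ± 0.109, adjusted p = 0.00201), which removes H2A.Z. Adding ISRIB lowered 2, led by the FACT subunit gene SUPT16H (-0.29 ± 0.0923, adjusted p = 0.0354), a call lost without bortezomib replicate 1, 2 or 3 or replicate 1 or 4 of the group with ISRIB (0.0574 to 0.136). The nelfinavir interaction was positive for 9, led by CHAF1A (1.24 ± 0.179, adjusted p = 4.28e-06), and negative for VPS72 (-0.79 ± 0.221, adjusted p = 0.01).

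Of the 8 S-phase entry genes, all 8 fell with nelfinavir (8.84% over all tested genes), led by RRM2 (-0.96 ± 0.0789, adjusted p = 1.95e-11). With bortezomib 5 fell, led by the cyclin A gene CCNA2 (-1.17 ± 0.114, adjusted p = 1.97e-10), and 1 rose, the cyclin E gene CCNE1 (0.68 ± 0.138, adjusted p = 8.73e-05). In the combination against bortezomib 2 rose, led by CCNE1 (0.56 ± 0.135, adjusted p = 0.00188), and 3 fell, led by CCNA2 (-0.41 ± 0.122, adjusted p = 0.0119), which also fell when ISRIB was added (-0.56 ± 0.124, adjusted p = 0.00221). The combination call of CCNA2 was lost without bortezomib replicate 2 or 3 or combination replicate 3 or 4 (0.0555 to 0.0864), and the bortezomib call of CCNE1 with library totals alone (0.259). The nelfinavir interaction was positive for 6 of 8, led by E2F1 (1.44 ± 0.205, adjusted p = 3.56e-06). The part of S-phase gene levels in the histone results was not tested.

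**Figure D4:**
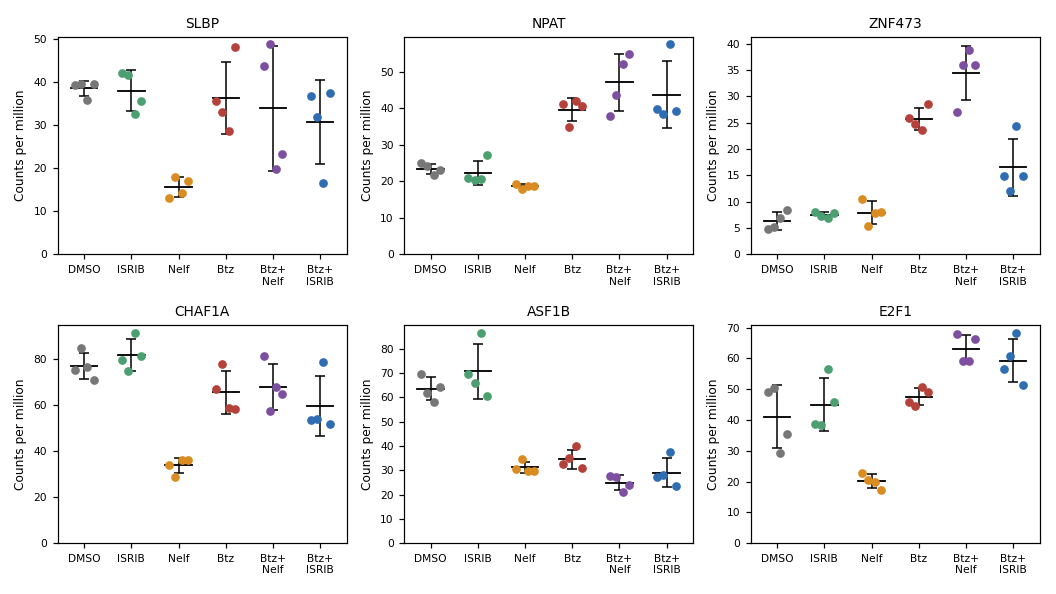
CPM of SLBP, NPAT, ZNF473, CHAF1A, ASF1B and E2F1 in each library, with the mean and SD of the 4 replicates of each group on linear axes from 0. SLBP sits at 13.1 to 17.9 CPM with nelfinavir against 35.8 to 39.6 CPM with DMSO, and NPAT is between 34.9 and 57.7 CPM in all libraries with bortezomib and at most 27.2 CPM in those without.

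HIST1H1C and HIST1H2BK, which went opposite ways when nelfinavir was added to bortezomib, also differ in the letters before their start sites. RefSeq promoters (GRCh38.p14) were found for 52 of the 61 genes, and the 250 bases before the start are shown for these 2. Capitals mark, on either strand, the H1 box AAACACA, the octamer ATTTGCAT, the CCAAT box and the TATA box TATAAA, which can overlap.
HIST1H1C (chr6:26056471-26056720, minus strand): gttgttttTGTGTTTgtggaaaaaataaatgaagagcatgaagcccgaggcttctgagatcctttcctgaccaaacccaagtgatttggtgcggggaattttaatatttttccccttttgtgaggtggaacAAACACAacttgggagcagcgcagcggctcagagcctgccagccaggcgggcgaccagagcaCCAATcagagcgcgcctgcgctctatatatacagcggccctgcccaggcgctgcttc
HIST1H2BK (chr6:27146859-27147108, minus strand): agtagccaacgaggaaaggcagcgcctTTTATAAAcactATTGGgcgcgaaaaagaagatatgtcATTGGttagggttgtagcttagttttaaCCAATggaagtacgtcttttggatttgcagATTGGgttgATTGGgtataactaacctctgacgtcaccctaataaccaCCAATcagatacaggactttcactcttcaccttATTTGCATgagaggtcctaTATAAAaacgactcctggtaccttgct
The H1 box was in the 4 replication-dependent H1 promoters and in 4.95% of all 27305 promoters of this length. The octamer was in 9 of 12 H2A and 9 of 12 H2B promoters and in 1.66% of all. CCAAT was in all replication-dependent H1, H2A, H2B and H3 promoters found and in 0 of 8 H4 promoters, against 33% of all. It was also in 4 of 5 variant H2A, 2 of 2 variant H3 and 0 of 1 variant H1 promoters. TATAAA was in 2 of 4 replication-dependent H1, 10 of 12 H2A, 9 of 12 H2B, 5 of 8 H3 and 5 of 8 H4 promoters. Among variant promoters it was in 1 of 1 H1, 2 of 5 H2A and 1 of 2 H3, against 11.1% of all. These are matches of letters and describe neither binding nor the cause of a change.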

How the data were processed

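The authors made QuantSeq FWD 3′ mRNA libraries from HepG2 cells, trimmed reads with cutadapt 2.8, aligned them to hg19 with STAR, run inside an nf-core workflow, and deposited raw read counts per gene for 24 libraries, all of which were used (0 columns left out). Which program counted the reads, whether it used strand, and whether molecular identifiers were read are points on which the sources used here give nothing; intervals therefore cover counting error only. Genes were kept by filterByExpr (minimum count 5, minimum total 25), which left 12685 of 18915, scaled by TMM and tested with edgeR 4.0.16 (glmQLFit, glmQLFTest; R 4.3.3), all 6 groups in 1 model, with Benjamini-Hochberg adjustment over all tested genes and a threshold of 0.05. The standard error is the log2 change divided by the square root of F. Interactions ask whether nelfinavir or ISRIB acted differently with bortezomib than without it. Alternatives were RLE factors, library totals alone, DESeq2 1.42.0, no filter, edgeR's default filter, the compared groups alone, a replicate block, leaving out each library, and, added after seeing the data, removal of mitochondrially encoded genes.

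The members and gene lists were chosen with earlier results of these data known, and 1 variant gene is not reported here. Genes named are the 8 variant genes, every HIST gene called in at least 1 of the 7 comparisons, the 6 HIST genes with the highest mean CPM, SLBP, NPAT, cell line markers, and for each list the called gene with the smallest p in each direction; VPS72, PCF11 and the remaining genes listed by name beside a count of 5 or fewer were added after their values were seen. P-values set the difference between groups against the spread between libraries within groups, a spread estimated jointly over all 6 groups. The replicates with the fewest differences still differed by 2.14 times counting noise (chi-square per degree of freedom), so each library was counted as its own replicate. Near copies were sought with BLAST 2.17.0, aligning the last 300 bases of each transcript at 97% identity or more over 80 bases or more. The test was tested on simulated data with 200 changed genes before use.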

Additional observations from a re-analysis of the deposited data

Results flagged for a closer look

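Of 138 groups of 4 libraries examined for the named histone genes, SLBP, NPAT and the 2 sums, 16 held a library set apart from the other 3 by Dixon's criterion. For normally distributed values chance alone meets it in about 1 group in 20. That rate does not hold near the floor. For HIST1H1D and HIST1H2BN a library was set apart merely because the other 3 had no reads. With bortezomib and ISRIB, replicate 3 was low for H2AFX (15.6 CPM against 27.4 to 28.5) and H2AFY (147 against 157 to 158) and high for NPAT (57.7 against 38.5 to 39.8). In the same group replicate 4 was low for HIST1H4C (36.3 against 75.7 to 83.2) and replicate 2 alone had reads of HIST1H1D (0.628 CPM). With bortezomib and nelfinavir, replicate 3 was low for H3F3A (0.785 CPM) and alone had reads of HIST1H1D (0.785 CPM). With bortezomib, replicate 2 was high for HIST1H2AC (1.55 CPM), replicate 3 for HIST1H2BH (2.32 CPM) and replicate 1 for HIST1H2BN (0.428 CPM). With nelfinavir, replicate 2 was high for HIST1H2BK (21.8 CPM against 14.4 to 15.4). With ISRIB, single libraries were low for H1FX (50.5 CPM) and H3F3B (672 CPM) and high for HIST1H2BC (1.41 CPM) and NPAT (27.2 CPM). With DMSO, replicate 3 was low for SLBP (35.8 CPM).

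The effect of nelfinavir differed with and without bortezomib, by edgeR's interaction term, for HIST1H2BK (log2 2.25, adjusted p = 1.62e-07), H2AFV (0.67), H2AFX (0.83), SLBP (1.19), NPAT (0.59), SRRT (0.91), CHAF1A (1.24), E2F1 (1.44), PCF11 (-1.03), CPSF6 (0.49) and VPS72 (-0.79). The effect of ISRIB differed with and without bortezomib for HIST1H2BK (1.14, adjusted p = 0.00918), H3F3B (-0.34) and CPSF1 (0.58). What underlies these differences was not tested.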

How the results depend on the processing

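Direction and call held for most results. Where a count of called histone genes moved by over 1.5 times, it did so by few genes. For bortezomib against DMSO, edgeR's default filter added 1 higher gene (H3F3B). For nelfinavir, the compared groups alone gave 1 higher. For ISRIB against DMSO, 2 genes were lower without a filter and 2 with the compared groups alone, against 0. For bortezomib with nelfinavir against bortezomib, no filter gave 5 higher and the compared groups alone 1 lower. For bortezomib with ISRIB, 1 was lower without a filter and 1 with the compared groups alone. For the ISRIB interaction, no filter gave 2 positive and 0 negative, and DESeq2 2 negative. The cause of these shifts was not tested. Leaving out 1 library at a time, the combination with nelfinavir had 3 to 5 higher and 1 to 4 lower genes, the combination with ISRIB 0 to 1 lower, the nelfinavir interaction 0 to 1 negative and the ISRIB interaction 0 to 2 negative. The count lower with bortezomib ranged from 12 to 15 and with nelfinavir from 6 to 8. With library totals alone, which moved the median log2 change of all genes for bortezomib against DMSO to -0.495, 5 genes turned in that comparison: H2AFY (-0.36), H3F3B (-0.35), SRRT (-0.49), PAPOLA (-0.08) and UBN1 (-0.18). The mean replication-dependent sum became 483 CPM with DMSO, 327 with ISRIB, 242 with nelfinavir and 128 with bortezomib. It was 117.8 CPM with bortezomib and nelfinavir and 117.5 with bortezomib and ISRIB. The bortezomib sum was then 26.5% of the DMSO mean and the ISRIB sum 67.6%. The mean variant sum became 2177 CPM with DMSO, 2328 with ISRIB, 2087 with nelfinavir, 1195 with bortezomib, 1252 with bortezomib and nelfinavir and 1093 with bortezomib and ISRIB.

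Of the same-numbered pairs of libraries, 10 of 60 correlated above 0.1 (median 0.0135), against 7 of 180 pairs with other numbers. Since most same-numbered pairs did not, the numbers were not taken to pair samples. The share was still larger among same-numbered pairs, so this check does not show that libraries of the same number were independent. With the replicate block, 13 histone genes were lower with bortezomib, HIST1H2BC no longer among them, and 2, in place of 1, were higher when ISRIB was added.

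Reads limited the low genes most: 33 of the 61 had too few to test, and intervals of HIST1H1D and HIST1H2BN span over 10-fold.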
